A study of Hydra vulgaris with 36 samples.

Results

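The 18 libraries described here are the DAPT-treated animals of a 36-library RNA sequencing series on the freshwater polyp Hydra vulgaris, strain Basel, with 6 libraries at each of 0 h, 3 h and 6 h of recovery from the inhibitor. They were chosen by treatment alone, without any measured value. Animals starved for 24 h were kept for 48 h in Hydra medium with 20 μM DAPT and 1% DMSO, renewed every 12 h, and were collected either at the end of that incubation or after 3 h or 6 h in medium with 1% DMSO only. The 18 control libraries came from animals kept in 1% DMSO throughout and collected at the same hours. About 25 whole animals were pooled for each library, so every value is a mean over all cell types of the body, and fewer cells of a type cannot be told apart from less RNA per cell. The columns of the deposited table carry the letter P or S in place of the treatment. P was read as DAPT and S as DMSO because each letter occurs in 1 of these names only; under the opposite reading, the values given for DAPT animals would be those of the controls.

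DAPT inhibits gamma-secretase, the membrane protease that releases the intracellular domain of the Notch receptor after the receptor has bound its ligand. The released domain enters the nucleus and acts with a DNA-binding partner on its target genes. In Hydra, Notch signalling is known for its part in forming the boundary between bud and parent, in the differentiation of stinging cells and in the patterning of the head. Removing the inhibitor lets the cleavage resume, and the question put to the 3 times was which transcripts change over the following hours. The genes carry Trinity assembly identifiers without names, none of which matched the reference table used here, so no gene is given a role below and no sequence is shown.

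The DAPT libraries held total counts of 8518484 to 15310480 at 0 h, 6617621 to 9971841 at 3 h and 7529491 to 10913483 at 6 h. The mean total was lower at 3 h than at 0 h by an exact permutation test (two-sided p = 0.00433, 0.0260 after Benjamini-Hochberg adjustment over 6 depth tests), whereas the other 5 tests of total counts and of the share of the 20 most abundant genes had adjusted p-values of 0.201 to 0.398. Time accounted for a median of 12.5% of a gene's variance among the 18 libraries. For a grouping unrelated to expression the expected mean is 11.8%. A mean and a median are unlike measures, so nothing is concluded from these 2 values. The libraries spread less at 0 h than later: the median standard deviation of a gene's log2 level between replicates was 0.30, 0.45 and 0.40 in the order of time, and the common biological coefficient of variation was 0.257, 0.343 and 0.325. DAPT 3 h replicate 2 and DAPT 6 h replicate 1 stood apart in ways given beside the results they touch.

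Over the full 6 h after removal, 9 of 11857 tested genes changed in DAPT animals, 8 rising and 1 falling (edgeR's quasi-likelihood test, Benjamini-Hochberg adjusted p under 0.05). The called share was 0.0759% in either direction, 0.0675% rising and 0.00843% falling. All 9 changes were at least 2-fold. At an unadjusted p under 0.05 there were 1455 genes, 782 higher and 673 lower at 6 h, where 593 are expected without any change. The median standard error of a log2 change was 0.24, which gives a 95% half-width of 0.46 for a typical gene. In the DMSO animals over the same hours, edgeR called 0 of 12074 genes (0%), with 1362 at an unadjusted p under 0.05, and 0 with any replicate number left out. The number at an unadjusted p under 0.05 then ran from 758 without replicate 3 to 2784 without replicate 1. The change within DMSO animals was not tested with DESeq2, with limma-voom or with single libraries left out.

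The number of calls rested on single libraries. Leaving out DAPT 6 h replicate 1 raised it to 224, of which 114 were higher and 110 lower at 6 h, all 9 original genes among them. Of those 224 genes, 221 had been tested with all libraries, and all 221 had the same direction and an unadjusted p under 0.05 there. Both fits share every other library, so this agreement is no independent support for the calls. Leaving out DAPT 3 h replicate 2 gave 16 calls, and leaving out DAPT 0 h replicate 3 gave 15. The count fell to 1 without DAPT 0 h replicate 1, 4, 5 or 6 or DAPT 6 h replicate 2, 3 or 6, to 2 without DAPT 3 h replicate 5 or 6 or DAPT 6 h replicate 5, and to 3 without DAPT 3 h replicate 1 or 4. In each of these 12 fits the falling gene named below was still called. DESeq2 called 141 genes in the same comparison, 95 higher and 46 lower, and limma-voom called 1.

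In the first 3 h, edgeR called 0 of 11857 genes (0%), with a smallest adjusted p of 0.196. At an unadjusted p under 0.05 there were 838 genes, 490 higher and 348 lower at 3 h. DESeq2 called 50 genes in this interval, 48 of them higher, and limma-voom called 0. Without replicate 3 at all 3 times, edgeR called 45 genes, 44 of them higher. From 3 h to 6 h, edgeR again called 0 genes (0%), with a smallest adjusted p of 0.637 and 823 genes at an unadjusted p under 0.05, and DESeq2 and limma-voom called 0. A linear trend over the 3 times passed for 1 gene (0.00843%), with 1427 at an unadjusted p under 0.05, and a difference of any shape passed for 1 gene (0.00843%), with 1132. Both calls were the falling gene described next. Without DAPT 6 h replicate 1 the trend passed for 234 genes and any difference for 54. The trend passed for 0 genes without DAPT 0 h replicate 6 or DAPT 6 h replicate 5, and for 2 without DAPT 0 h replicate 2, DAPT 3 h replicate 2 or DAPT 6 h replicate 4. The call of any shape stayed at 1 without DAPT 3 h replicate 4 or DAPT 6 h replicate 6, became 3 without DAPT 3 h replicate 3, and was 0 without each of the other 14 libraries.

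**Figure D1:**
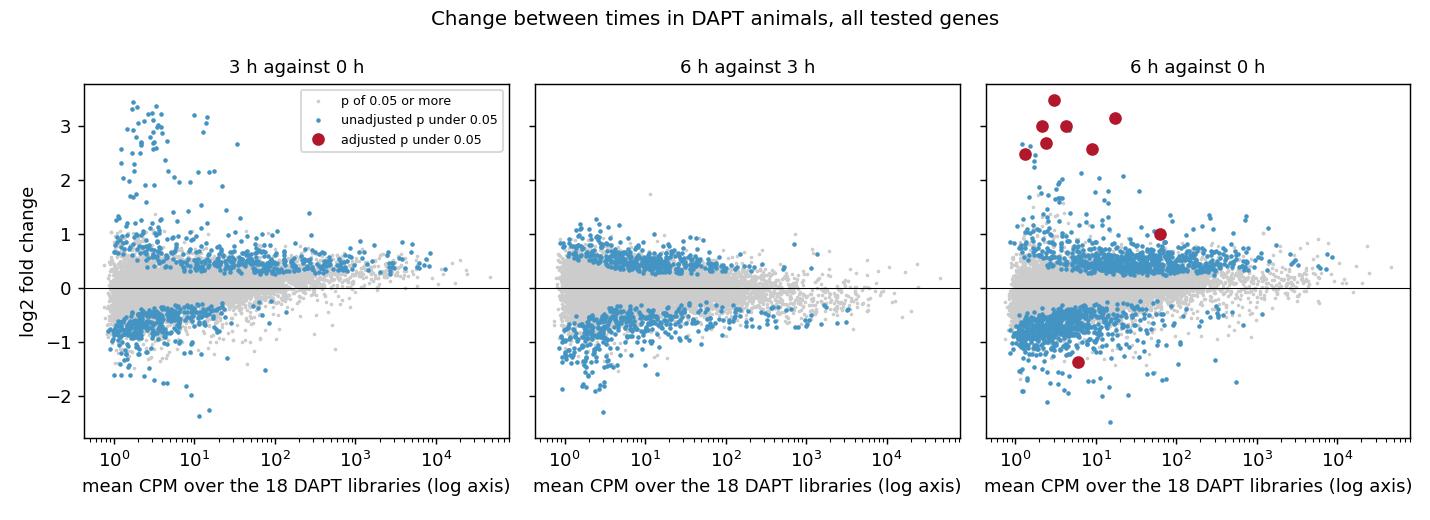
Log2 fold change (vertical axis) against mean CPM over the 18 DAPT libraries (horizontal log axis) for each of 11857 genes and each pair of times; blue marks an unadjusted p under 0.05 and red an adjusted p under 0.05 in edgeR. The 9 red genes appear in the comparison of 6 h with 0 h alone, and a cloud of scarce genes lies above a log2 change of 2 in the comparison of 3 h with 0 h.

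TRINITY_DN3153_c0_g1 was the 1 gene that fell. Its level in CPM (expected counts scaled to library size with TMM factors over all 36 libraries) ran from 7.34 over a median of 8.32 to 10.2 at 0 h. At 3 h the lowest, median and highest DAPT libraries stood at 4.10, 6.51 and 8.09 CPM. At 6 h they stood at 2.40, 3.08 and 4.50 CPM, so that all 6 libraries of 6 h lay below all 6 of 0 h while those of 3 h overlapped with both. The mean fell from 8.64 ± 1.27 CPM through 6.18 ± 1.45 to 3.31 ± 0.84 (SD, n = 6 each).

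The log2 change of TRINITY_DN3153_c0_g1 from 0 h to 6 h was -1.39 (SE 0.19, edgeR adjusted p 0.00943), a fall of 2.61-fold. Most of it came in the second interval, with a log2 change of -0.49 (SE 0.19) from 0 h to 3 h and -0.89 (SE 0.20) from 3 h to 6 h, neither of which passed (edgeR adjusted p 0.682 and 0.637). The trend was -0.23 log2 units per hour (SE 0.03, edgeR adjusted p 0.0101). The control libraries held less of it at every time, with successive means of 1.23 ± 0.54, 1.31 ± 0.66 and 0.941 ± 0.199 CPM. All 18 DAPT libraries were above all 18 DMSO libraries, and the gene was among those called higher with DAPT in the 3 h libraries. In DMSO animals its log2 change from 0 h to 6 h was -0.40 (SE 0.38). The difference between the changes in DAPT and in DMSO animals was -1.0 (SE 0.42), short of the threshold (edgeR adjusted p 0.956).

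Among genes lower at 6 h, the one with the next smallest p, TRINITY_DN2949_c0_g1, did not pass. Its DAPT libraries held 9.27 to 11.8 CPM at 0 h (median 10.3), 7.32 to 12.7 CPM after 3 h (median 9.79) and 4.98 to 7.61 CPM after 6 h (median 5.76), so that 6 h lay wholly below 0 h. The log2 change from 0 h to 6 h was -0.73 (SE 0.15, edgeR adjusted p 0.0861), and without DAPT 6 h replicate 1 the adjusted p was 0.0173. The gene was called in 5 of 32 alternatives, and the highest edgeR adjusted p among them was 0.555, without replicate 5. The control means were 10.1 ± 2.4, 10.7 ± 2.1 and 8.79 ± 2.03 CPM, so DAPT and DMSO animals overlapped at 0 h.

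**Figure D2:**
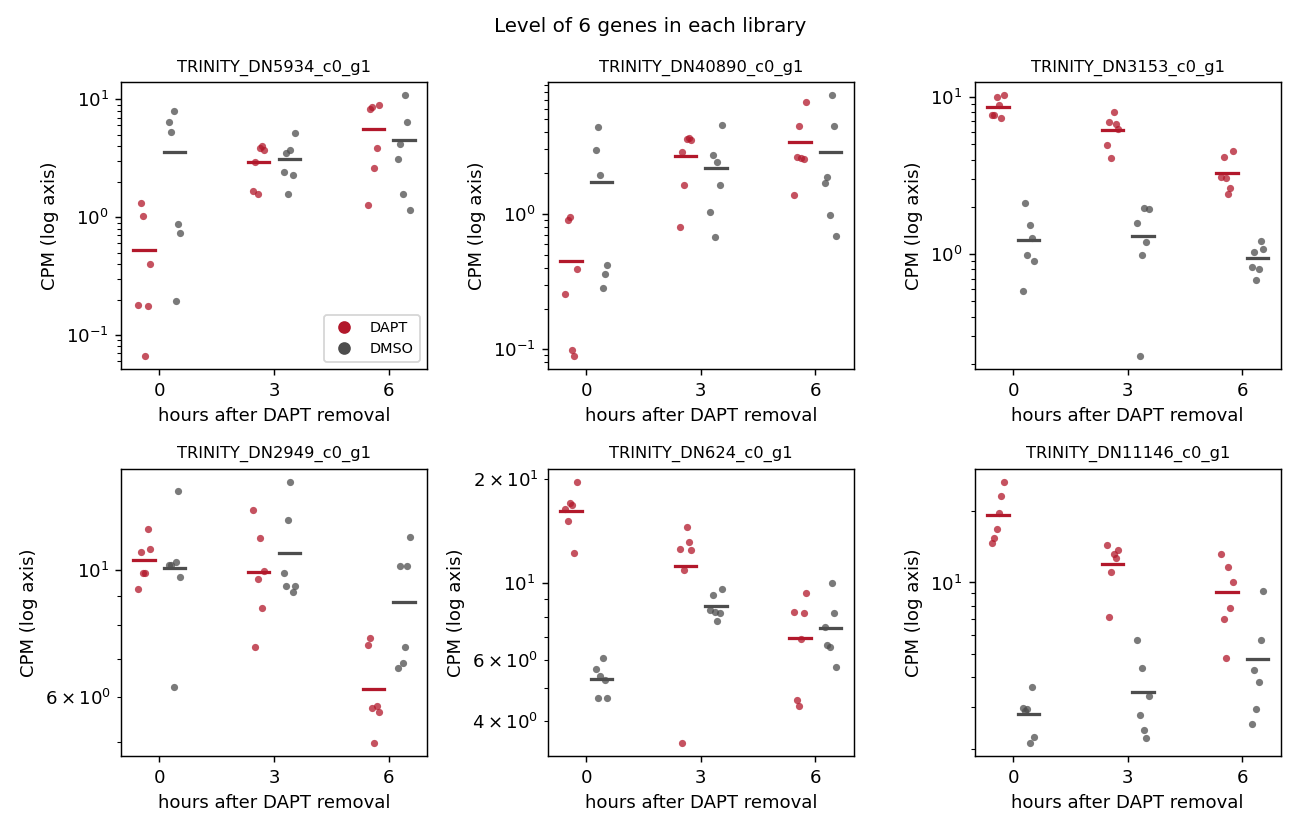
Level in each library (CPM, log axis) of 6 genes against hours after removal; red points are the 6 DAPT and grey points the 6 DMSO libraries of a time, in the order of their replicate numbers, and bars are means. TRINITY_DN3153_c0_g1 falls step by step in DAPT yet stays above every DMSO library, whereas TRINITY_DN5934_c0_g1 lies between 0.0658 and 1.32 CPM in DAPT at 0 h and overlaps with DMSO at all times.

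The rising gene with the smallest p was TRINITY_DN5934_c0_g1. At 0 h it was nearly absent, with 0.81 to 11.48 expected counts per DAPT library and a lowest, median and highest level of 0.0658, 0.292 and 1.32 CPM. At 3 h the libraries stood at 1.57, 3.32 and 4.01 CPM, all of them above those of 0 h. At 6 h they stood at 1.26, 6.10 and 8.97 CPM. The lowest of these, replicate 1, stood just under the highest library of 0 h, and the other 5 were at 2.63 CPM or more.

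From 0 h to 6 h TRINITY_DN5934_c0_g1 rose by 3.49 log2 units (SE 0.56, edgeR adjusted p 0.0261), or 11.3-fold. The first 3 h held 2.57 of it (SE 0.57, edgeR adjusted p 0.196) and the next 3 h held 0.92 (SE 0.48, edgeR adjusted p 0.745). The control animals reached the same levels without a called change, with means of 3.60 ± 3.39, 3.10 ± 1.29 and 4.53 ± 3.61 CPM at the 3 times. At 0 h their libraries split: replicates 1, 2 and 3 lay between 5.32 and 8.01 CPM and replicates 4, 5 and 6 between 0.193 and 0.883 CPM.

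TRINITY_DN40890_c0_g1 also rose. Its DAPT libraries held 0.0886 to 0.952 CPM at 0 h (median 0.326), 0.807 to 3.67 CPM after 3 h (median 3.21) and 1.38 to 6.77 CPM after 6 h (median 2.60). All 6 h libraries lay above all 0 h libraries, the 3 h libraries overlapped with both, and the median was lower at 6 h than at 3 h. The log2 change from 0 h to 6 h was 3.00 (SE 0.53, edgeR adjusted p 0.0468), of which 2.65 (SE 0.54) lay in the first 3 h. In DMSO animals at 0 h, replicates 1 to 3 had 1.95 to 4.36 CPM and replicates 4 to 6 had 0.286 to 0.419 CPM.

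Across the 8 rising genes the log2 changes from 0 h to 6 h ran from 1.00 to 3.49, with standard errors of 0.19 to 0.57 and edgeR adjusted p-values of 0.0261 to 0.0468. In 7 of them the mean at 0 h was at most 3.69 CPM and rose 5.60- to 11.3-fold. The mean at 3 h lay between those of 0 h and 6 h in 8 of 8, and a median of 75.1% of the log2 change was reached by 3 h. These genes were called on the change from 0 h to 6 h, which makes a 3 h mean between these times likely. The separation from 0 h was less uniform: all 6 h libraries lay above all 0 h libraries in 2 of 8.

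The remaining rising gene was more abundant. Its DAPT libraries held 30.8 to 63.2 CPM at 0 h (median 42.4), 42.1 to 85.0 at 3 h (median 51.7) and 61.4 to 96.8 at 6 h (median 91.1). Here 5 of the 6 h libraries, from 87.9 CPM upward, exceeded every 0 h and 3 h library, and replicate 1, at 61.4 CPM, did not. The mean went from 44.0 ± 11 to 87.4 ± 13.2 CPM (SD, n = 6), a log2 change of 1.00.

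Replicate 1 was the lowest DAPT 6 h library in 8 of 8 rising genes. How often it was the lowest over all tested genes was not counted. In the DMSO animals at 0 h, replicates 1 to 3 were all above replicates 4 to 6 in 8 of 8, and in the 7 scarce genes the highest of these control libraries exceeded the lowest by 11.5- to 143-fold. In the abundant gene the split was narrow, with replicate 1 at 54.8 CPM and replicate 4 at 54.3 CPM. Over all 11857 tested genes, 1931 (16.3%) had this split in the DMSO animals at 0 h. In the DAPT animals at 0 h the same split was present in 3 of the 8 genes. The DAPT and DMSO libraries overlapped at every time in 8 of 8. Neither this overlap nor the split within DAPT animals was counted over all tested genes. Over the same 6 h their log2 change in DMSO animals was -0.06 to 0.70, with 0 of 8 called by edgeR. The difference between the changes in DAPT and in DMSO, 0.70 to 3.18, had an edgeR adjusted p of 0.956 in each of the 8. The part of this split, and of whatever the replicate numbers stand for, in the rise was not tested.

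**Figure D3:**
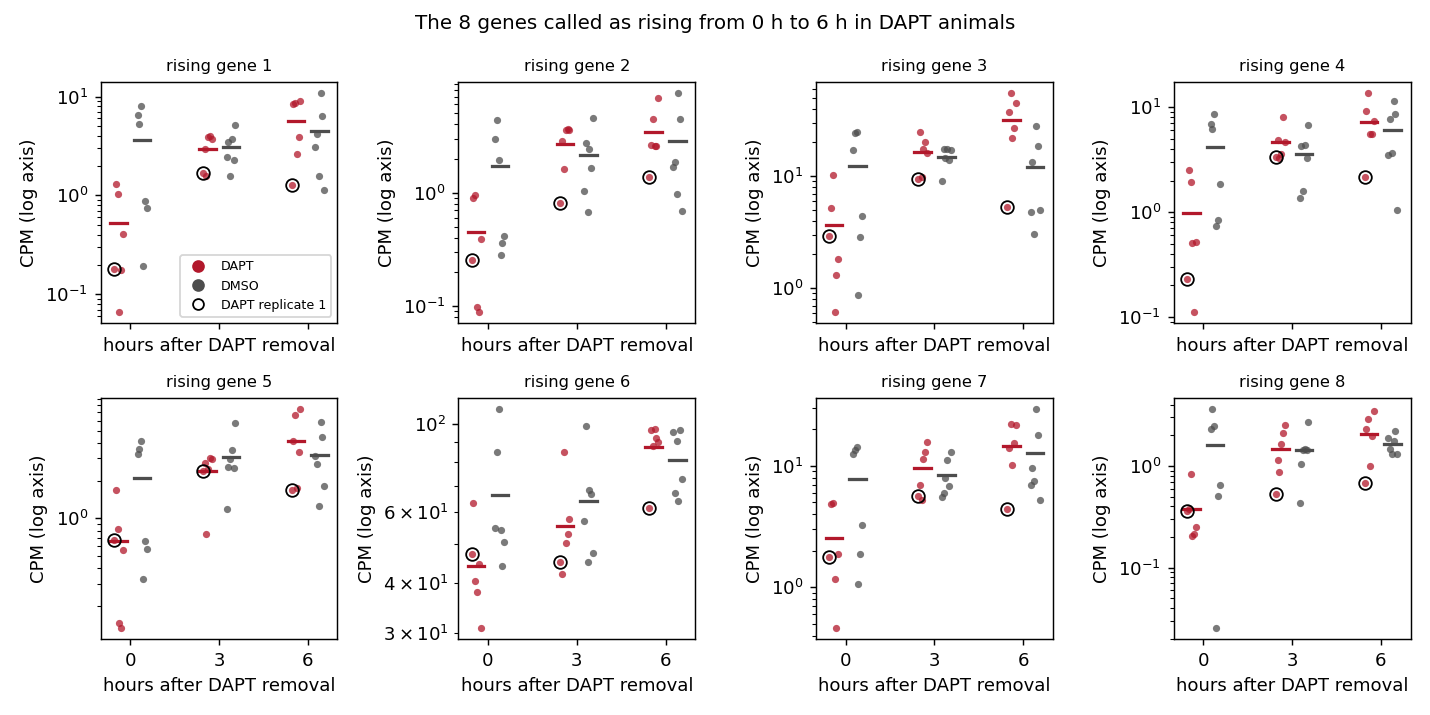
The 8 genes called as rising from 0 h to 6 h in DAPT animals, in the order of their p: level in each library (CPM, log axis) against hours after removal, red for DAPT, grey for DMSO, bars for means, with DAPT replicate 1 ringed. The ringed point is the lowest DAPT library at 6 h in every panel, and the grey points at 0 h form a high and a low group of 3 in the 7 scarce genes.

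A wider set of scarce genes stood higher at 3 h than at 0 h. In DAPT animals 45 genes were at least 4-fold higher at 3 h than at 0 h and 2 were at least 4-fold lower. This set was chosen after its values were seen, and none of it was called by edgeR. An unadjusted p under 0.05, found in 45 of 45, is favoured by the 4-fold choice. Their log2 changes ran from 2.04 to 3.44, with standard errors of 0.49 to 0.84 against a median of 0.24 over all tested genes. Across the second interval 0 genes were higher and 1 was lower by 4-fold or more. Of the 45 genes, 37 were lower at 6 h than at 3 h, with a median log2 change of -1.36, and 8 were higher, and 5 of the 45 were among the rising genes called at 6 h. Genes chosen for high values at 3 h tend to stand lower in other libraries, so nothing is concluded from this fall.

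The level of these 45 genes varied widely between libraries. Their median CPM in a DAPT library was 0.274 to 1.85 at 0 h (middle of the 6 libraries 0.479), 1.11 to 18.7 after 3 h (middle 3.64) and 0.470 to 4.48 after 6 h (middle 2.24). The library at 18.7 CPM was replicate 2; the next highest of 3 h stood at 5.65 CPM, and 5 of the 6 libraries of 3 h exceeded every library of 0 h. Without replicate 2 of 3 h, 35 genes were at least 4-fold higher, 32 of them among the 45. At 6 h the lowest library was again replicate 1.

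The control libraries, which took no part in choosing these genes, also stood highest at 3 h. Over the 45 genes their median CPM averaged 1.25 ± 0.99 before, 3.67 ± 1.86 after 3 h and 1.42 ± 0.59 after 6 h (SD over 6 libraries each). At 0 h, DMSO replicates 1, 2 and 3 lay between 2.01 and 2.30 CPM and replicates 4, 5 and 6 between 0.126 and 0.492 CPM. That split, replicates 1 to 3 all above 4 to 6, was present in 43 of the 45 genes (95.6%) and in 1931 of the 11857 tested genes (16.3%). The summed share of the 45 genes in a DAPT library was 0.00338% to 0.0863%. Total counts were also lower at 3 h than at 0 h, and the part of depth in these values was not tested.

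**Figure D4:**
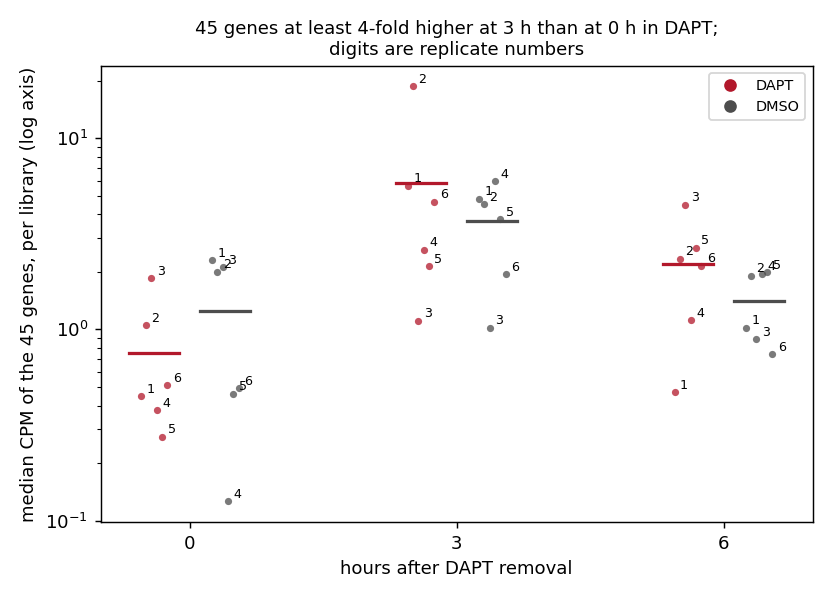
Median level (CPM, log axis) of the 45 genes that were at least 4-fold higher at 3 h than at 0 h in DAPT animals, for each library against hours after removal; red is DAPT, grey is DMSO, bars are means and digits are replicate numbers. DAPT 3 h replicate 2 stands at 18.7 CPM, and DMSO replicates 1 to 3 lie above replicates 4 to 6 at 0 h.

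A separation of whole groups, which carries no adjustment for the number of genes, gave a larger set than the adjusted test. Without any change, 6 libraries are separated from 6 others in either direction with a chance of 0.00216 per gene. Part or all of each count below can thus be expected without any change. In 58 genes (0.489% of 11857) every 6 h library was above every 0 h library, and in 59 (0.498%) every 6 h library was below. Of the same 11857 genes, the first interval gave 37 above and 19 below, and the second gave 4 above and 6 below. Of 12074 genes, the DMSO animals gave 22 above and 26 below over the full 6 h, 27 and 26 in the first interval, and 32 and 142 in the second. The DAPT course and the DMSO course share no library.

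The 3 h libraries took no part in choosing these 117 genes. Their mean lay between those of 0 h and 6 h in 49 of the 58 higher genes and in 53 of the 59 lower genes. The choice sets 0 h and 6 h apart, so a 3 h mean between them is likely even without a course over time. By 3 h, a median of 44.7% of the log2 change was reached in the higher and 27.0% in the lower genes. The choice also enlarges the changes that these shares are taken of. The changes were modest, with a median log2 difference of 0.48 for the higher and -0.84 for the lower genes. In DMSO animals, 52 of the 58 were higher at 6 h (median log2 0.14) and 44 of the 59 lower (median -0.18). Over all 11851 genes tested in the DMSO libraries of 0 h and 6 h alone, 5716 were higher and 51.8% lower, with a median of -0.01. The genes were chosen on the DAPT libraries of these times, which enlarges the DAPT medians, so the sizes in DAPT and DMSO animals are not compared.

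Direction went with abundance. Among genes with a mean of 1 to 10 CPM in DAPT animals, 213 were higher and 514 lower at 6 h than at 0 h at an unadjusted p under 0.05. Among genes of 10 to 100 CPM, 395 were higher and 131 lower, and above 100 CPM 172 were higher and 20 lower. The balance also rested on the scaling: with library totals in place of TMM factors the median log2 change over all genes moved to -0.28 for the first interval and to -0.21 for the full 6 h. The split of 782 higher and 673 lower genes then became 200 and 1294, that of the first interval went from 490 and 348 to 114 and 1267, and that of the second from 390 and 433 to 310 and 246. The calls at 6 h against 0 h became 9 higher and 4 lower, with 8 of the 9 genes kept. Every direction given here is relative to the TMM scaling.

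To ask whether the genes that DAPT had altered moved back, genes were chosen from the 12 libraries of 3 h and followed from 0 h to 6 h in the 12 DAPT libraries that took no part in the choice. At 3 h, 153 genes were higher with DAPT (1.37% of 11179 tested) and 513 were lower (4.59%), by edgeR at an adjusted p under 0.05. The higher genes were mostly lower after recovery: 119 of 153 (77.8%) were lower at 6 h than at 0 h, with a median log2 change of -0.24 and quartiles of -0.53 and -0.02. Over all 11829 genes tested in these 12 libraries the median was -0.02 and 52.4% were lower. At an unadjusted p under 0.05, 48 of the 153 were lower and 3 higher, beside 6.66% lower and 7.59% higher of all genes. At the adjusted threshold 1 of them was called lower, where edgeR called 2 of all genes (0.0169%), both lower.

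The shift was small beside the gap to the controls. Of the 153 genes, 29 (19.0%) were at least 1.5-fold lower and 1 at least 1.5-fold higher at 6 h, and 9 (5.88%) were at least 2-fold lower with 0 higher. Over all 11829 tested genes, 828 were at least 1.5-fold lower and 382 at least 1.5-fold higher. At least 2-fold lower were 157 of all genes (1.33%), and 80 (0.676%) were at least 2-fold higher. The median ratio of the DAPT to the DMSO mean over the 153 genes was 2.20 at 0 h and 1.81 at 6 h. The mean log2 CPM of the 153 genes per DAPT library was 4.95 to 5.11 at 0 h and 4.56 to 4.84 after 6 h, so the libraries of these times did not overlap. In DMSO libraries it was 3.64 to 3.85 at 0 h and 3.61 to 3.91 after 6 h, and 73 of the 147 genes that could be tested there were lower at 6 h, with a median log2 change of 0.00.

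The genes lower with DAPT at 3 h had no common direction from 0 h to 6 h. Of the 513, 457 passed the low-count filter in the DAPT libraries of 0 h and 6 h. Their median log2 change was -0.04, with 249 lower and 208 higher at 6 h, and at an unadjusted p under 0.05 there were 37 lower and 38 higher. The median DAPT to DMSO ratio was 0.416 at 0 h and 0.436 at 6 h. In DMSO animals 510 of these genes could be tested, with a median change of -0.12. All 513 genes contribute to the mean log2 CPM per DAPT library, which was 1.90 to 2.39 at 0 h and 1.76 to 2.37 after 6 h, in overlapping ranges.

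**Figure D5:**
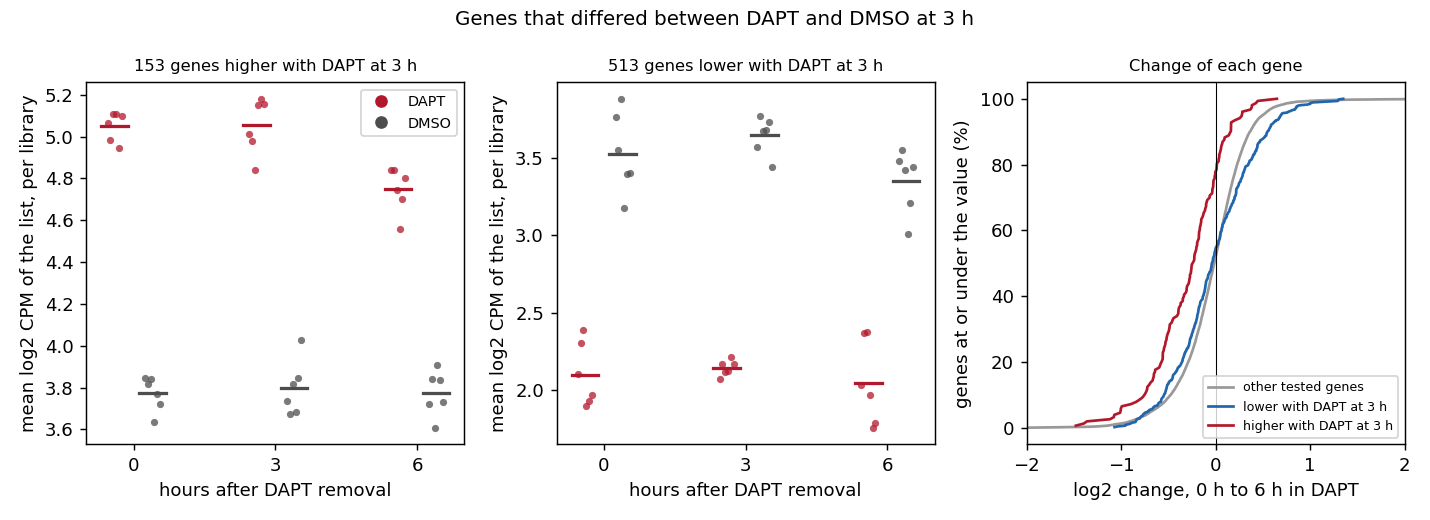
Mean log2 CPM per library of the 153 genes higher and the 513 genes lower with DAPT at 3 h (left and middle; red DAPT, grey DMSO, bars are means of 6 libraries), and the share of genes at or under each log2 change from 0 h to 6 h in DAPT animals (right). The 6 h libraries of the higher list lie below its 0 h libraries, at 4.56 to 4.84 against 4.95 to 5.11; the 3 h libraries chose the genes and are shown for reference.

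Lists chosen at the other times allowed each interval to be followed. Of 228 genes higher with DAPT at 0 h (1.89% of 12051 tested), 225 could be followed from 3 h to 6 h in DAPT animals, and 189 of these (84%) were lower at 6 h, with a median log2 change of -0.25 against 0.01 over all 11117 tested genes. At an unadjusted p under 0.05, 36 of the 225 (16%) were lower and 0 higher, beside 2.46% lower and 2.17% higher of all genes. In the DMSO animals 105 of 202 (52.0%) were lower, with a median of -0.01, where all 11141 genes tested there had a median of 0.04 and 42.6% lower. Of 86 genes higher with DAPT at 6 h (0.766% of 11225 tested), 39 were lower and 47 higher at 3 h than at 0 h, with a median of 0.029 against -0.01 over all genes. Of 638 genes lower with DAPT at 0 h (5.29%), 516 could be followed from 3 h to 6 h, with a median of 0.03. Of these, 278 were higher and 238 lower (46.1%), beside 48.4% lower of all genes. Of 296 lower at 6 h (2.64%), 257 could be followed from 0 h to 3 h, with a median of 0.10. Here 159 were higher and 98 lower (38.1%), beside 50.9% lower of all 11678 genes. At an unadjusted p under 0.05 in edgeR, 7 of the 257 (2.72%) were higher and 4 (1.56%) lower, beside 4.35% and 3.39% of all genes. In DMSO animals 166 of the 296 were higher and 130 lower. The lists differ in their genes, and the difference between the intervals was not tested.

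Some of the separated genes came from these lists. Of the 59 genes whose 6 h libraries were all below those of 0 h, 7 (11.9% of the 59, 4.58% of the 153) were among the genes higher with DAPT at 3 h, beside 0.498% of all tested genes, and of the 58 above, 0 were, beside 0.489%. Of the 513 genes lower with DAPT at 3 h, 458 were tested. Of these, 1 (0.218%) was among the 58 above and 3 (0.655%) were among the 59 below, shares near those over all tested genes or under them.

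A change in DAPT animals that differed from the change in DMSO animals was called for 2 genes, named here because of that call and after their values were seen. Of 12253 genes tested over all 36 libraries, edgeR called 1 (0.00816%) for the difference between the changes from 0 h to 6 h and 2 for the difference between the trends. In the first and the second interval edgeR called 0, with 150 and 319 genes at an unadjusted p under 0.05, and DESeq2 and limma-voom called 0 as well. Over the full 6 h there were 477 genes at an unadjusted p under 0.05 in edgeR. In each of these tests 613 are expected without any difference, so small p-values were fewer than that. For the change from 0 h to 6 h DESeq2 called 4 and limma-voom 0.

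TRINITY_DN624_c0_g1 was 1 of them. Its DAPT libraries held 12.2 to 19.6 CPM at 0 h (median 16.6), 3.46 to 14.6 CPM after 3 h (median 12.5) and 4.43 to 9.40 CPM after 6 h (median 7.56). The DMSO libraries held 4.66 to 6.10 CPM at 0 h (median 5.35), 7.78 to 9.65 CPM after 3 h (median 8.33) and 5.72 to 10.04 CPM after 6 h (median 7.08). DAPT and DMSO libraries were thus fully apart at 0 h and overlapped at 6 h. The 3.46 CPM at 3 h was that of DAPT replicate 2. The other DAPT libraries of 3 h held 10.9 to 14.6 CPM, above every DMSO library of 3 h. The change from 0 h to 6 h was lower in DAPT than in DMSO by -1.69 log2 units (SE 0.29, edgeR adjusted p 0.0225), and the trend by -0.28 per hour (SE 0.05, edgeR adjusted p 0.0438). The change within DAPT animals was -1.20 (SE 0.25) and that within DMSO animals 0.47 (SE 0.14), and neither passed alone (edgeR adjusted p 0.0892 and 0.400).

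TRINITY_DN11146_c0_g1 was the other. Its DAPT libraries held 14.7 to 26.4 CPM at 0 h (median 18.1), 7.13 to 14.4 CPM after 3 h (median 12.9) and 4.83 to 13.1 CPM after 6 h (median 8.94). The DMSO libraries held 2.11 to 3.63 CPM at 0 h, 2.22 to 5.75 CPM after 3 h and 2.54 to 9.18 CPM after 6 h. The treatments did not overlap at 0 h or 3 h and did at 6 h. The trend was lower in DAPT by -0.32 log2 units per hour (SE 0.06, edgeR adjusted p 0.0438), with a log2 change from 0 h to 6 h of -1.07 (SE 0.22, edgeR adjusted p 0.0892) in DAPT and 0.82 (SE 0.30, edgeR adjusted p 0.426) in DMSO. Leaving out replicate 3, 4, 5 or 6 at all times in both treatments gave 0 calls for either difference. Without replicate 1 there was 1 call for each, TRINITY_DN11146_c0_g1 (edgeR adjusted p 0.0252 over 6 h and 0.0151 for the trend), and TRINITY_DN624_c0_g1 was not called (edgeR adjusted p 0.159 and 0.168). Without replicate 2 there were 2 calls for each, among them TRINITY_DN624_c0_g1 (edgeR adjusted p 0.00269 and 0.0143) but not TRINITY_DN11146_c0_g1 (edgeR adjusted p 0.341 and 0.180).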

How the data were processed

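Whole-animal mRNA was sequenced strand-specifically with 100 bp reads on 3 lanes from 6 libraries per group, which the labels call biological replicates. Per the labels, adapters, poly-A stretches and splice leaders were trimmed, and reads of quality under 20, shorter than 30 bp or with undetermined bases were dropped. RSEM, Bowtie2 and DESeq2 1.18.1 appear in the submitters' processing notes. The authors deposited expected counts (estimated counts that need not be whole) for 12410 genes in 36 columns, all matched to samples by number, hour and letter. The table holds no value of 0 (lowest 0.09), so a gene at 0 in any library is outside the analysis.

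Expected counts were rounded and genes filtered with filterByExpr, which left 11857 and removed 553 in the DAPT fit. The test was edgeR 4.0.16's quasi-likelihood F test under R 4.3.3, with TMM factors of 0.699 to 1.36 and a fit of the 18 DAPT libraries, called at a Benjamini-Hochberg (BH) adjusted p under 0.05 over all tested genes. Standard errors are those implied by F. CPM is the unrounded expected count over the TMM-scaled total, with factors from all 36 libraries, times 1e6. Differences between treatments used 1 fit of all 36 libraries. Scripts were tested on simulated data. Depth was compared with exact permutation tests, whose smallest two-sided p for 6 against 6 is 0.00216. Named are the 2 rising and 2 falling genes with the smallest p from 0 h to 6 h, and exceptions are stated. Alternatives tried were DESeq2 1.42.0 and limma-voom from limma 3.58.1, size factors of other kinds, other filters and thresholds, the replicate number as a block, a fit of all libraries, and omission of each replicate number. Omission of each DAPT library was added after seeing the data. The groups, lists and rules were chosen with earlier results of these data known.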

Additional observations from a re-analysis of the deposited data

Results flagged for a closer look

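Measures in the 3 DAPT groups were checked for a library far from the other 5 of its time: total counts, the share of the 20 most abundant genes, the scaling factor, the 6 named genes, the lists chosen at 3 h and the 45 genes at least 4-fold higher at 3 h. Of 36 checks 3 stood out, where chance gives about 1 in 20, or 1.8. All 3 concern DAPT 3 h replicate 2. Its 20 most abundant genes took 32.2% of the counts, against 25.7% to 27.1% in the other 5 libraries. Its median level of the 45 genes was 18.7 CPM, against 1.11 to 5.65. Its level of TRINITY_DN624_c0_g1 was 3.46 CPM, against 10.9 to 14.6.

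The change over time differed between DAPT and DMSO animals by a test of the difference itself in 3 cases. For TRINITY_DN624_c0_g1 the change from 0 h to 6 h differed by -1.69 log2 units and the trend by -0.28 per hour, and for TRINITY_DN11146_c0_g1 the trend differed by -0.32 per hour. In both genes the mean of the DAPT libraries was lower, and that of the DMSO libraries higher, at 6 h than at 0 h.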

How the results depend on the processing

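Directions turned in the cases given here for library totals and for the genes chosen at 6 h. With library totals the genes at an unadjusted p under 0.05 went from 782 higher and 673 lower to 200 and 1294 over 6 h, from 490 and 348 to 114 and 1267 in the first 3 h, and from 390 and 433 to 310 and 246 in the next 3 h. From 0 h to 6 h in DAPT, the 9 calls became 141 with DESeq2, 66 with all 36 libraries in 1 fit, 1 with limma-voom and 1 at an adjusted p under 0.01. Omitting 1 replicate number gave 0 to 59 calls, and omitting 1 DAPT library gave 1 to 224. From 0 h to 3 h the calls became 50 with DESeq2 and 0 to 45 by omission. The trend gave 4 calls with library totals, 151 with DESeq2, 66 with all libraries, 0 at 0.01, 0 to 66 by omitted number and 0 to 234 by omitted library. A difference of any shape gave 0 without a filter, 134 with DESeq2, 27 with all libraries, 0 at 0.01 and 0 to 54 by omission.

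The difference between DAPT and DMSO over 6 h gave 4 calls with DESeq2, 0 with limma-voom and 0 to 2 by omission; with library totals the 1 call turned from a gene lower in DAPT relative to DMSO to another gene that was higher. That of the trends gave 0 with library totals, 0 with limma-voom and 0 to 2 by omission. In DMSO, omission gave 0 to 47 calls from 0 h to 3 h, 0 to 9 from 3 h to 6 h and 0 to 12 for any shape. The median change of the genes higher with DAPT at 3 h was -0.37 for those at least 2-fold higher, -0.46 with library totals (all genes -0.21), and 0.029 for genes chosen at 6 h and followed from 0 h to 3 h; without DAPT 6 h replicate 1 it was -0.26.

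Replicate numbers did not pair the samples: 9 of 18 same-number pairs of libraries correlated above 0.1 (-0.59 to 0.55), and 3 of 18 libraries correlated best with their own number. With the replicate block, 6 genes were called from 0 h to 6 h, 5 of them among the 9. The block gave 0 for the trend (1532 at an unadjusted p under 0.05), 0 for any shape (1192) and 0 for the difference of trends (538), all with edgeR. The causes of these changes were not tested.

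TRINITY_DN3153_c0_g1 stayed called in 30 of 32 alternatives, the exceptions being omission of replicate 4 (edgeR adjusted p 0.0972) or 5 (0.104), TRINITY_DN5934_c0_g1 in 20 and TRINITY_DN40890_c0_g1 in 15. TRINITY_DN2949_c0_g1, which did not pass with the main settings, was called in 5 of the 32. TRINITY_DN624_c0_g1 was called for its 6 h difference in 5 of 12, with log2 differences of -1.78 to -1.59 over the 12. The alternatives gave 35 to 58 genes at least 4-fold higher at 3 h than at 0 h, and 32 to 45 of the 45 were among them.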
